A study of Ovis aries with 12 samples.

Results

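Feeding a diet with 1% succinate (SUC2) was compared with the basal diet alone (control) in the longissimus dorsi, the long back muscle, of Tan sheep (Ovis aries). Every gene that passed a filter on low counts was a member of the comparison, which gave 13319 of the 21257 genes in the deposited table. SUC2 sheep ate the basal diet with 1% succinate and control sheep ate the basal diet with none. The series also held diets with 0.5% (SUC1) and 2% (SUC3) succinate. All sheep were 5 months old, 9 were assigned to each diet (36 in all), and the trial of 60 days followed a pretrial period of 10 days. Each diet had 3 libraries. The labels do not say whether each library stands for a single sheep or for pooled sheep, and p-values therefore reflect only the spread among these libraries, which may be technical. They give neither the sex of the sheep nor the hour of sampling.

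Succinate is an intermediate of the TCA cycle, where the mitochondrial enzyme succinate dehydrogenase oxidises it, and outside cells it is the ligand of the receptor SUCNR1. Skeletal muscle takes up and burns glucose and fatty acids, and its fibres contract when an action potential releases calcium from the sarcoplasmic reticulum. The title of the series names muscle fibre characteristics and meat quality as the subject. SUCNR1 was close to the floor of counting, with 0.523, 1.06 and 0.432 CPM in SUC2 and 0.345, 0.436 and 0.573 CPM in control (CPM, counts scaled to a common library size). Its log2 fold change was 0.56 ± 0.61 (SE; adjusted p = 0.687).

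Library totals were 15870294 to 18564057 counts in SUC2 and 16678596 to 17233737 in control. A count of 3, the floor used here, corresponded to 0.157 to 0.185 CPM in SUC2 and 0.163 to 0.207 CPM in control. The tissue carried the markers of muscle fibres in every library. Alpha-actin ACTA1 stood at 38360, 38260 and 40940 CPM in SUC2 and 67430, 35660 and 40870 CPM in control. The 13 fibre markers summed to 165200, 167400 and 175700 CPM in SUC2 and 260200, 170800 and 204200 CPM in control, with control replicate 1 the highest. On the first principal component (19% of variance) the SUC2 libraries stood at 20.1, 11.2 and 51.6, against -44.9 to -27.3 in control. On the second (15.8%) SUC2 replicate 2 stood apart at 55.1, and SUC3 replicate 1 in the other direction at -52.15.

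In SUC2, 191 of 13319 genes differed from control at an adjusted p under 0.05 (1.43%), 103 of them higher (0.773%) and 88 lower (0.661%). Adjusted p-values here are from edgeR's quasi-likelihood test and were adjusted by the Benjamini-Hochberg method over the 13319 genes. Log2 fold changes are SUC2 minus control and are given ± their standard error. The smallest adjusted p was 0.0213. The fold was over 2 for 85 of the higher genes and for 65 of the lower genes, and the median log2 fold change was 1.34 among the higher and -1.40 among the lower genes. Without adjustment, 2378 genes had a p under 0.05 (17.9%). The SUC2 and control libraries did not overlap for 2952 genes tested (22.2%), SUC2 being higher for 1534 (11.5%) and lower for 1418 (10.6%), and 190 of the 191 were among them. The exception was LOC105614203, at 9.67, 0.0591 and 11.04 CPM in SUC2 and 0.0690, 0.0545 and 0.0573 CPM in control. The count rested on single libraries. Leaving out SUC2 replicate 3 gave 0 calls (smallest adjusted p 0.0844, 1740 genes at an unadjusted p under 0.05). The same held for control replicate 2 (0.0540, 1813 genes) and for control replicate 3 (0.0695, 2014 genes). Each of the 191 genes kept its sign in all of these fits, which the lack of overlap largely fixed in advance. Lack of overlap in a called gene is likewise no separate support, and is given below only as a description. When counts were scaled by library totals alone, 149 genes were called higher and 54 lower.

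**Figure D1:**
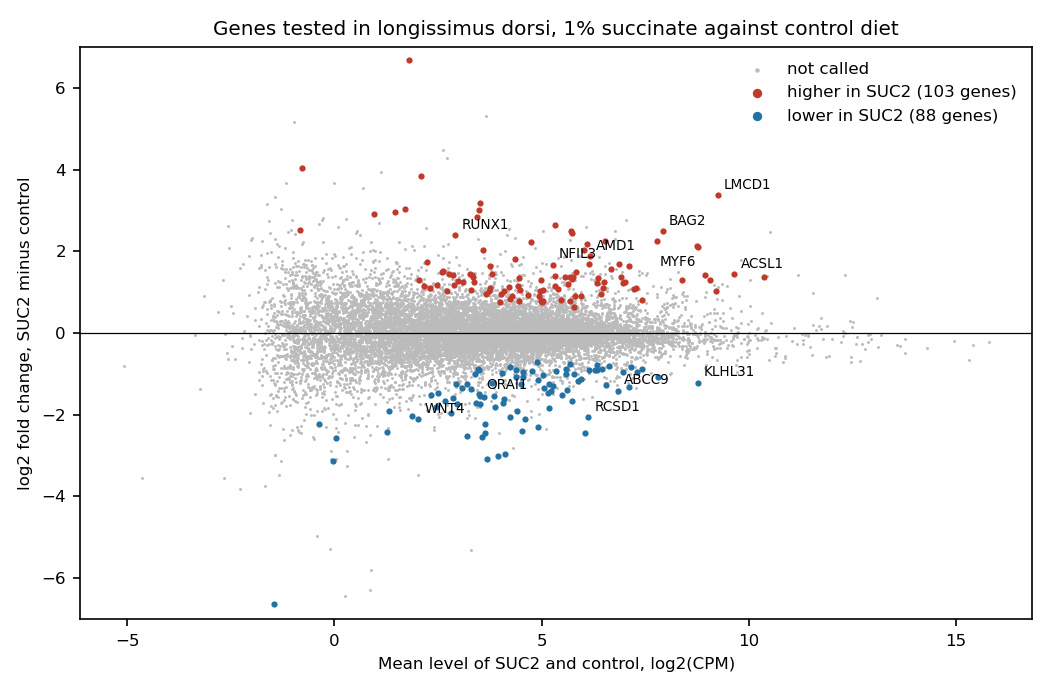
Log2 fold change of each gene tested (SUC2 minus control, vertical axis) against its mean level in both diets (log2 CPM, horizontal axis). The 103 genes called higher (red) and the 88 called lower (blue) lie across most of the range of levels, and LMCD1, BAG2 and ACSL1 are among the higher genes at high levels.

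Protein folding genes were among those that rose. Of 39 tested members of the cytosolic HSP70 and HSP90 chaperone system, 4 were called higher and 0 lower (10.3%, against 1.43% over all genes). The median log2 fold change of the list was 0.49, against -0.0027 over all genes tested. Over all genes 0.773% were called higher and 0.661% lower, the shares beside which each list count below stands. The lists were written with earlier results of these data known, so these counts are no separate support. BAG2, a co-chaperone that regulates HSP70 and the client-degrading ligase CHIP, had 298, 375 and 566 CPM in SUC2 and 114, 48.7 and 57.7 CPM in control (log2 fold change 2.49 ± 0.44, adjusted p = 0.0265). DNAJA1, a J-domain protein that hands clients to HSP70, had 131, 231 and 266 CPM in SUC2 and 92.6, 59.6 and 49.1 CPM in control (log2 fold change 1.64 ± 0.36, adjusted p = 0.0423). Every SUC2 library was above every control library for both, and control replicate 1 was the highest control library in each. HSPA13, a microsomal HSP70 family member, had 27.5, 33.9 and 28.6 CPM in SUC2 and 16.2, 12.1 and 12.2 CPM in control (log2 fold change 1.15 ± 0.25, adjusted p = 0.0426). HSPA6, a stress-inducible HSP70 that is near-identical to other HSP70 genes in places, so that reads could be shared, was low at 2.56, 6.56 and 8.26 CPM in SUC2 and 1.17, 0.436 and 0.516 CPM in control (log2 fold change 3.04 ± 0.62, adjusted p = 0.0351). Among members that did not pass, HSPH1, the HSP110 exchange factor of HSP70, had a log2 fold change of 1.46 ± 0.34 (adjusted p = 0.0526), and HSPA8, the constitutive HSP70, one of 0.67 ± 0.23 (adjusted p = 0.152).

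In the endoplasmic reticulum, 1 of 30 chaperones and genes of the unfolded protein response was called higher and 0 lower (median 0.30). The log2 fold change was positive for 26 of them, and 15 lay higher without overlap, against 11.5% of all genes. DESeq2 called 3, and 12 had an unadjusted p under 0.05. The member called by edgeR was HSPA5 (BiP), the HSP70 of that compartment, with 168, 156 and 224 CPM in SUC2 and 79.7, 74.9 and 78.2 CPM in control (log2 fold change 1.24 ± 0.20, adjusted p = 0.0213). The control libraries lay within a few CPM of each other. Among members that did not pass, XBP1, a transcription factor of that response, had a log2 fold change of 0.23 ± 0.14 (adjusted p = 0.431) and DDIT3 (CHOP), a factor induced under prolonged stress, one of 0.44 ± 0.43 (adjusted p = 0.647). In the list of ATF4 and amino acid stress genes 0 of 25 passed with edgeR, while DESeq2 called 4 and 5 had an unadjusted p under 0.05.

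Signalling genes of the cAMP pathway, the route from adrenergic receptors to the transcription factor CREB, were called higher in 3 of 22 tested cases. In 0 cases they were called lower (median 0.40), so 13.6% were called, against 1.43% over all genes. The log2 fold change was positive for 15 and negative for 7. SIK1, a salt-inducible kinase that CREB induces and that restrains the CREB coactivators, had 101, 66.3 and 101 CPM in SUC2 and 18.3, 14.5 and 14.7 CPM in control (log2 fold change 2.50 ± 0.41, adjusted p = 0.0213). PDE4D, a phosphodiesterase that breaks down cAMP, had 601, 385 and 456 CPM in SUC2 and 272, 147 and 168 CPM in control (log2 fold change 1.30 ± 0.25, adjusted p = 0.0328). CREM, a CREB family factor, had 223, 225 and 186 CPM in SUC2 and 133, 71.9 and 89.0 CPM in control (log2 fold change 1.11 ± 0.23, adjusted p = 0.0382). None of these showed overlap between the diets, as for 190 of the 191 called genes. NR4A3, a nuclear receptor induced by exercise and cAMP, was much more uneven at 3.87, 10.2 and 59.9 CPM in SUC2 and 0.552, 0.545 and 0.745 CPM in control, and its log2 fold change of 5.30 ± 1.58 did not pass (adjusted p = 0.102). For PPARGC1A, the coactivator of mitochondrial biogenesis, the libraries overlapped at 27.4, 133 and 40.9 CPM in SUC2 and 45.8, 13.5 and 31.2 CPM in control (adjusted p = 0.515).

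Of 597 tested genes that the deposited table describes with the word kinase, 9 were called higher and 4 lower (2.18%, against 1.43% over all genes). Those called lower were PFKFB2, PHKG1, PRKAA2 and SRPK2. Among those called higher, RPS6KA3 (RSK2), a kinase downstream of ERK, had 775, 599 and 924 CPM in SUC2 and 385, 231 and 313 CPM in control (log2 fold change 1.31 ± 0.26, adjusted p = 0.0332). HIPK2, a nuclear kinase of stress responses, had 89.0, 48.5 and 113 CPM in SUC2 and 31.9, 26.1 and 31.3 CPM in control (log2 fold change 1.49 ± 0.29, adjusted p = 0.0325). SUC2 replicate 2 was the lowest SUC2 library for both and still lay above all control libraries. PTPN2, a phosphatase that turns off JAK and STAT signalling, had 41.9, 43.5 and 47.0 CPM in SUC2 and 21.0, 22.1 and 20.1 CPM in control (log2 fold change 1.07 ± 0.18, adjusted p = 0.0213), a difference with little spread inside either diet. In the other direction, DUSP7, a phosphatase of ERK, had 54.2, 64.0 and 44.7 CPM in SUC2 and 83.3, 111 and 112 CPM in control (log2 fold change -0.91 ± 0.19, adjusted p = 0.0393), and it was chosen after its values were seen. In the list of 15 MAPK phosphatases and feedback genes, which does not include DUSP7, 0 passed with edgeR and the median was 0.51 (DESeq2 called 2, and 6 had an unadjusted p under 0.05).

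Cytokine signalling held 3 higher and 1 lower call among 36 tested genes (11.1%, against 1.43% over all genes, median 0.45). STAT3, the transcription factor of IL-6 family cytokines, had 84.9, 137 and 162 CPM in SUC2 and 52.1, 45.9 and 62.6 CPM in control (log2 fold change 1.25 ± 0.24, adjusted p = 0.0312). IL1R1, the signalling receptor of interleukin 1, had 12.8, 18.5 and 18.3 CPM in SUC2 and 9.31, 8.06 and 8.20 CPM in control (log2 fold change 0.95 ± 0.21, adjusted p = 0.0423). LIFR, a receptor of leukaemia inhibitory factor, had 102, 97.8 and 107 CPM in SUC2 and 164, 203 and 182 CPM in control (log2 fold change -0.84 ± 0.16, adjusted p = 0.0309). STAT3 and IL1R1 were thus higher and LIFR lower in SUC2. PTX3, a secreted pentraxin of the acute phase, ranged from 1.36 to 12.9 CPM in SUC2 and from 0.436 to 0.690 CPM in control (log2 fold change 3.85 ± 0.69, adjusted p = 0.0265). SOCS3, a STAT3 target that feeds back on the pathway, had 1.52, 39.9 and 4.99 CPM in SUC2 and 2.90, 2.78 and 1.03 CPM in control and did not pass (adjusted p = 0.118), with SUC2 replicate 2 far above the other libraries.

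The descriptions named 275 tested genes as a transcription factor, nuclear receptor, homeobox or forkhead box protein. Of these, 4 were called higher (RUNX1, E2F6, ELF1 and FOXO1) and 3 lower (MEIS1, LBX1 and NR1D1). This is 2.55%, against 1.43% over all genes, and the median log2 fold change was 0.066. RUNX1, which is low in innervated adult muscle and rises on denervation in mice, had 7.48, 13.7 and 16.9 CPM in SUC2 and 2.48, 2.72 and 1.95 CPM in control (log2 fold change 2.41 ± 0.36, adjusted p = 0.0213). ETS2, an ETS factor downstream of ERK, had 180.3, 165 and 187 CPM in SUC2 and 33.0, 79.0 and 52.1 CPM in control (log2 fold change 1.70 ± 0.31, adjusted p = 0.0288). FOSL1, an AP-1 subunit, was low at 2.30, 5.50 and 2.47 CPM in SUC2 and 0.621, 0.218 and 0.516 CPM in control (log2 fold change 2.92 ± 0.58, adjusted p = 0.0332). It was the single call among 24 AP-1 and immediate early factors (median 0.55). The classical members of that list were uneven: FOS had 35.97, 17.1 and 49.0 CPM in SUC2 and 73.4, 13.7 and 14.2 CPM in control and overlapped (adjusted p = 0.994). E2F6, a repressor of cell cycle genes, had 77.9, 59.8 and 68.5 CPM in SUC2 and 31.7, 26.6 and 32.1 CPM in control (log2 fold change 1.19 ± 0.20, adjusted p = 0.0213).

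Markers of immune cells varied beside these genes. All 19 tested markers had a positive log2 fold change (median 0.98) and 11 lay higher without overlap (11.5% over all genes), yet 0 passed with edgeR. DESeq2 called 3 of them, and 13 had an unadjusted p under 0.05. Their summed level was 142, 164 and 126 CPM in SUC2 and 75.2, 65.3 and 106 CPM in control. MRC1, the macrophage mannose receptor, had 12.1, 14.1 and 8.39 CPM in SUC2 and 6.76, 2.34 and 4.30 CPM in control (log2 fold change 1.38 ± 0.33, adjusted p = 0.0588). PTPRC (CD45), which marks all leukocytes, had 7.84, 8.92 and 8.14 CPM in SUC2 and 4.07, 3.92 and 7.57 CPM in control (adjusted p = 0.187). LOC105612575, which the deposited table describes as the scavenger receptor M130, a macrophage protein, had the smallest p of all genes tested, with 14.1, 25.7 and 17.9 CPM in SUC2 and 3.10, 1.74 and 3.15 CPM in control (log2 fold change 2.85 ± 0.37, adjusted p = 0.0213). It has no symbol and so was not counted in the marker list. Its identity beyond that description was not tested, and it was chosen after its values were seen. Matrix and fibroblast markers summed to 3952, 3252 and 4715 CPM in SUC2 and 3179, 2014 and 3116 CPM in control, with 0 of 40 called higher and 1 lower (CILP2). Adipocyte markers summed to 223, 104 and 154 CPM in SUC2 and 81.1, 81.8 and 82.0 CPM in control, with 0 of 11 called by edgeR and 1 by DESeq2 (3 had an unadjusted p under 0.05). The part of these cells in the cytokine, cytoskeletal and other differences was not tested, and in bulk tissue more cells of a type and more RNA per cell cannot be told apart.

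Genes in the list of the non-muscle actin cytoskeleton were called higher in 5 of 34 tested cases and lower in 0 (14.7%, against 1.43% over all genes, median 0.55). The log2 fold change was positive for 29 of the 34 and negative for 5. ANXA2, an annexin that binds membranes and actin and helps to repair the sarcolemma, had 87.2, 119 and 119.5 CPM in SUC2 and 45.2, 25.8 and 30.1 CPM in control (log2 fold change 1.69 ± 0.26, adjusted p = 0.0213). TPM4, a non-muscle tropomyosin, had 60.7, 59.9 and 75.7 CPM in SUC2 and 42.8, 33.9 and 36.8 CPM in control (log2 fold change 0.79 ± 0.16, adjusted p = 0.0340). MYH10, a non-muscle myosin heavy chain with sequence in common with other myosins, had 44.4, 72.5 and 55.3 CPM in SUC2 and 35.9, 23.6 and 22.5 CPM in control (log2 fold change 1.07 ± 0.22, adjusted p = 0.0393). S100A11, an annexin partner, and DCLK1, a microtubule-associated kinase, were the remaining calls, with log2 fold changes of 1.41 ± 0.27 (adjusted p = 0.0328) and 1.28 ± 0.24 (adjusted p = 0.0312). Not every call of the list is thus an actin protein. TAGLN2, an actin-bundling protein, and ITGA5, the fibronectin receptor subunit, lay outside the list and were also called, with 1.38 ± 0.23 (adjusted p = 0.0213) and 1.44 ± 0.27 (adjusted p = 0.0298). The largest fold of a well expressed gene belonged to LMCD1, a LIM protein linked to calcineurin signalling in mouse heart. It had 1012, 922 and 1403 CPM in SUC2 and 241, 32.9 and 49.2 CPM in control (log2 fold change 3.37 ± 0.67, adjusted p = 0.0332), with control replicate 1 several times above the other control libraries.

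**Figure D2:**
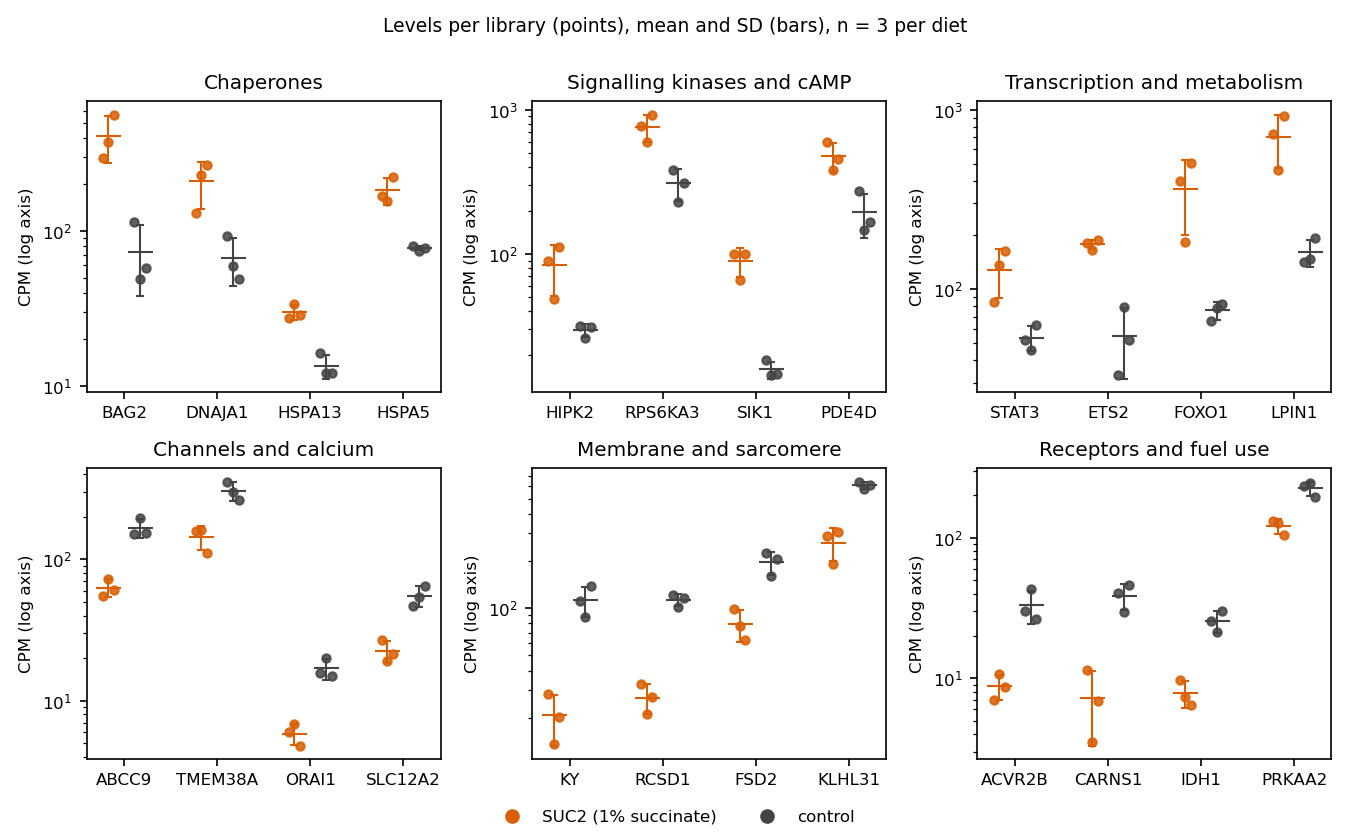
Levels (CPM, log axis) of 24 called genes in the 3 SUC2 libraries (orange, left) and the 3 control libraries (grey, right), with mean and SD. The upper panels hold 12 genes called higher and the lower panels 12 called lower. For each gene the points of the diets do not overlap, as for 190 of the 191 called genes.

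Genes that muscle raises on fasting or under glucocorticoids had the highest median of the lists after the immune markers, at 0.97 over 21 tested genes. Of these, 3 were called higher and 0 lower (14.3%, against 1.43% over all genes). Without overlap 12 lay higher (11.5% over all genes). FOXO1, the factor that insulin keeps out of the nucleus, had 401, 184 and 503 CPM in SUC2 and 66.3, 78.5 and 82.6 CPM in control (log2 fold change 2.26 ± 0.49, adjusted p = 0.0423). LPIN1, a phosphatidate phosphatase and coactivator of fat oxidation, had 729, 459 and 925 CPM in SUC2 and 142, 147 and 193 CPM in control (log2 fold change 2.13 ± 0.44, adjusted p = 0.0382). The gene described as metallothionein-2 (MT2A), a zinc-binding protein whose family members are alike enough to share reads, had 8.10, 34.7 and 17.1 CPM in SUC2 and 3.31, 1.96 and 2.24 CPM in control (log2 fold change 2.999 ± 0.63, adjusted p = 0.0398). All 3 SUC2 libraries lay above control for each, and SUC2 replicate 2 was the lowest of the SUC2 libraries for FOXO1 and LPIN1 and the highest for MT2A. CEBPD and GLUL, the glutamine synthetase gene, had log2 fold changes of 1.56 ± 0.39 (adjusted p = 0.0662) and 1.42 ± 0.44 (adjusted p = 0.114) and did not pass. GABARAPL1, an ATG8 protein of autophagosomes and a FOXO target in mice, had 79.8, 61.5 and 62.8 CPM in SUC2 and 23.5, 27.8 and 28.2 CPM in control (log2 fold change 1.36 ± 0.30, adjusted p = 0.0423), as the single call among 34 autophagy and lysosome genes (median -0.074).

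The ubiquitin ligases and proteases of muscle atrophy did not move as 1 group. By edgeR 0 of 35 were called higher and 2 lower (5.71%, against 1.43% over all genes), with a median of -0.38. The log2 fold change was negative for 22 and positive for 13, and 13 lay lower and 4 higher without overlap (10.6% and 11.5% over all genes). DESeq2 called 11 of the 35, and 18 had an unadjusted p under 0.05. KLHL31, a kelch protein needed for sarcomere integrity in mice, had 291, 191 and 305 CPM in SUC2 and 643, 576 and 611 CPM in control (log2 fold change -1.22 ± 0.23, adjusted p = 0.0312). ASB4, a substrate receptor of a cullin ligase, had 25.8, 19.4 and 11.1 CPM in SUC2 and 55.9, 46.9 and 53.9 CPM in control (log2 fold change -1.47 ± 0.30, adjusted p = 0.0379). Both fell in SUC2. TRIM63 (MuRF1), the ligase that degrades thick filament proteins, went the other way at 1361, 1237 and 1595 CPM in SUC2 and 305, 453 and 455 CPM in control but did not pass (log2 fold change 1.79 ± 0.53, adjusted p = 0.102). FBXO32 (atrogin-1) overlapped at 2023, 1092 and 989 CPM in SUC2 and 619.7, 1690 and 1671 CPM in control (adjusted p = 0.976).

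Of 42 splicing and RNA-binding genes, 3 were called higher and 0 lower (7.14%, against 1.43% over all genes, median 0.16). The SR protein SRSF3 had 109.9, 111 and 121 CPM in SUC2 and 70.3, 49.3 and 56.6 CPM in control (log2 fold change 0.95 ± 0.19, adjusted p = 0.0332). Its relatives SRSF7 and TRA2B had log2 fold changes of 0.91 ± 0.20 (adjusted p = 0.0440) and 0.91 ± 0.18 (adjusted p = 0.0325). PAF1, a subunit of the elongation complex that travels with RNA polymerase II, had 73.0, 61.7 and 102 CPM in SUC2 and 27.9, 28.5 and 34.9 CPM in control (log2 fold change 1.37 ± 0.21, adjusted p = 0.0213). TOP1, the topoisomerase that relieves supercoils ahead of polymerases, had 99.8, 97.8 and 145 CPM in SUC2 and 51.2, 48.5 and 46.7 CPM in control (log2 fold change 1.23 ± 0.23, adjusted p = 0.0312). EIF4A1, the RNA helicase of translation initiation, had 58.6, 94.2 and 75.8 CPM in SUC2 and 34.1, 25.5 and 31.9 CPM in control (log2 fold change 1.32 ± 0.21, adjusted p = 0.0213). It was the single call among 39 translation factors (median 0.077). Of 54 ribosome biogenesis genes, 46 had a positive log2 fold change (median 0.44) and 1 was called. This was RRS1, which acts in the assembly of the large subunit, at 12.7, 30.0 and 19.1 CPM in SUC2 and 5.38, 9.42 and 4.99 CPM in control (log2 fold change 1.64 ± 0.36, adjusted p = 0.0432). The 75 cytosolic ribosomal proteins held 0 calls by edgeR, 0 genes at an unadjusted p under 0.05 and 0 calls by DESeq2, and had a median of -0.079, whose sign depended on the setting (-0.39 to 0.11). AMD1, which makes the aminopropyl donor of polyamine synthesis, had 90.4, 115 and 133 CPM in SUC2 and 37.7, 20.2 and 33.5 CPM in control (log2 fold change 1.89 ± 0.28, adjusted p = 0.0213).

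Among the genes that fell, several act in membrane excitability and calcium release. Of 36 genes in the list of ion channels and membrane pumps, 5 were called lower and 0 higher (13.9%, against 1.43% over all genes, median -0.32). The list was written with earlier results of these data known, so this count is no separate support. ABCC9, the sulfonylurea receptor subunit of the ATP-sensitive potassium channel, which also marks pericytes, had 55.0, 73.0 and 61.0 CPM in SUC2 and 152, 196 and 154 CPM in control (log2 fold change -1.41 ± 0.21, adjusted p = 0.0213). CLCN1, the chloride channel that stabilises the resting potential of fibres, had 40.2, 28.7 and 32.3 CPM in SUC2 and 52.6, 71.3 and 63.6 CPM in control (log2 fold change -0.89 ± 0.19, adjusted p = 0.0394). AQP4, the water channel of fast fibres, ranged from 2.04 to 5.49 CPM in SUC2 and from 12.8 to 46.7 CPM in control (log2 fold change -2.96 ± 0.60, adjusted p = 0.0360). TRPM4, a cation channel opened by calcium, was low at 1.20, 2.90 and 3.27 CPM in SUC2 and 6.21, 11.6 and 7.74 CPM in control (log2 fold change -1.80 ± 0.35, adjusted p = 0.0332). The remaining call of the list, LRRC14B, is a leucine-rich repeat protein rather than a known channel or pump. Its log2 fold change was -2.53 ± 0.51 (adjusted p = 0.0340). Outside the list, SLC12A2, the sodium, potassium and chloride cotransporter, had 26.9, 19.1 and 21.4 CPM in SUC2 and 46.6, 54.2 and 65.0 CPM in control (log2 fold change -1.30 ± 0.23, adjusted p = 0.0265). For each of these genes the SUC2 libraries lay below all control libraries, and 190 of the 191 called genes likewise showed no overlap. Smooth muscle and pericyte markers summed to 4680, 7556 and 5121 CPM in SUC2 and 5738, 5499 and 5890 CPM in control, and their part in the ABCC9 values was not tested.

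Of 31 genes of calcium handling in the sarcoplasmic reticulum, 2 were called lower and 0 higher (6.45%, against 1.43% over all genes). Of the 31, 27 had a negative log2 fold change (median -0.26) and 11 lay lower without overlap (10.6% over all genes). ORAI1, the plasma membrane channel of store-operated calcium entry, had 5.96, 6.80 and 4.81 CPM in SUC2 and 15.7, 20.2 and 14.9 CPM in control (log2 fold change -1.53 ± 0.25, adjusted p = 0.0213). TMEM38A (TRIC-A), a channel that balances charge while the reticulum releases calcium, had 159, 162 and 112 CPM in SUC2 and 355, 298 and 262 CPM in control (log2 fold change -1.08 ± 0.21, adjusted p = 0.0325). CACNB1, the beta subunit of the voltage sensor of fibres, and JPH2, a junctophilin of the triad, had log2 fold changes of -0.88 ± 0.20 (adjusted p = 0.0543) and -0.72 ± 0.19 (adjusted p = 0.0779), neither past the threshold. TPCN1, a channel of endosomes and lysosomes, and CACNG6, a calcium channel gamma subunit, were also called, at -1.73 ± 0.32 (adjusted p = 0.0310) and -1.09 ± 0.19 (adjusted p = 0.0265). Counted by the descriptions in the deposited table, 0 of 114 ion channel genes were called higher and 6 lower (5.26%, against 1.43% over all genes). The log2 fold change was positive for 50 of them and negative for 64.

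Of 34 Z-disc, LIM and stretch-response genes, 1 was called higher (LMCD1) and 1 lower (KY), and 19 had a positive log2 fold change. The median of 0.13 changed sign with the setting (-0.016 to 0.39). DESeq2 called 6, and 7 had an unadjusted p under 0.05. KY, a protein of the Z-disc region whose loss causes muscle disease in mice, had 28.4, 13.6 and 20.2 CPM in SUC2 and 111, 88.4 and 139 CPM in control (log2 fold change -2.44 ± 0.48, adjusted p = 0.0332). Outside the list, RCSD1, a protein that binds the actin capping protein, had 32.7, 21.2 and 27.1 CPM in SUC2 and 121, 102 and 116 CPM in control (log2 fold change -2.07 ± 0.32, adjusted p = 0.0213). FSD2, a muscle protein with fibronectin and SPRY domains, had 98.6, 76.6 and 62.5 CPM in SUC2 and 225, 161 and 205 CPM in control (log2 fold change -1.31 ± 0.21, adjusted p = 0.0213). Fibre type genes gave 0 calls by edgeR and 0 by DESeq2, with 4 fast-twitch and 0 slow-twitch genes at an unadjusted p under 0.05. All 18 fast-twitch genes had a negative log2 fold change (median -0.37), for example MYH1 (fast IIx myosin) with 31020, 36280 and 28100 CPM in SUC2 and 57250, 44230 and 48130 CPM in control (log2 fold change -0.65 ± 0.27, adjusted p = 0.220). Slow-twitch genes had a median of 0.023 over 17 genes, whose sign depended on the setting (-0.28 to 0.88), and MYH7 (slow myosin) overlapped at 3766, 2474 and 3830 CPM in SUC2 and 7131, 1910 and 2182 CPM in control (adjusted p = 0.899).

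Among glycolytic genes 1 of 22 was called lower and 0 higher (median -0.42). The log2 fold change was negative for 15, and 9 lay lower and 1 higher without overlap (10.6% and 11.5% over all genes). DESeq2 called 4 of the 22, and 10 had an unadjusted p under 0.05. Among glycogen genes 1 of 24 was called lower and 0 higher (median -0.38). Here 19 were negative, and 7 lay lower and 1 higher without overlap (again beside 10.6% and 11.5% over all genes). DESeq2 called 3 of the 24, and 7 had an unadjusted p under 0.05. PFKFB2, which makes the activator of phosphofructokinase, had 8.26, 9.34 and 4.81 CPM in SUC2 and 24.1, 21.0 and 19.7 CPM in control (log2 fold change -1.53 ± 0.30, adjusted p = 0.0332). PHKG1, the muscle form of the subunit that gives phosphorylase kinase its activity, had 67.6, 65.0 and 54.0 CPM in SUC2 and 105, 121 and 119.6 CPM in control (log2 fold change -0.89 ± 0.19, adjusted p = 0.0411). SLC2A12, a glucose transporter, had 5.75, 5.38 and 3.82 CPM in SUC2 and 14.8, 15.1 and 19.5 CPM in control (log2 fold change -1.72 ± 0.32, adjusted p = 0.0312). The insulin-responsive transporter SLC2A4 (GLUT4) did not pass with a log2 fold change of 1.34 ± 0.42 (adjusted p = 0.115). IDH1, the cytosolic isocitrate dehydrogenase, had 9.73, 7.39 and 6.41 CPM in SUC2 and 25.5, 21.2 and 30.2 CPM in control (log2 fold change -1.70 ± 0.26, adjusted p = 0.0213). It was the single call among 39 genes of pyruvate entry and the TCA cycle. SDHA, the succinate dehydrogenase subunit that oxidises succinate, overlapped at 651, 372 and 714 CPM in SUC2 and 718, 499 and 614 CPM in control (adjusted p = 0.919). Among 37 complex I subunits, 36 nuclear subunits of complexes III to V and 13 mitochondrially encoded proteins 0 genes were called by edgeR and 0 by DESeq2, and 1, 0 and 1 had an unadjusted p under 0.05. PRKAA2, the AMPK catalytic subunit that dominates in muscle, had 132, 127 and 105 CPM in SUC2 and 235, 244 and 195 CPM in control (log2 fold change -0.89 ± 0.19, adjusted p = 0.0404). CARNS1, which makes carnosine, a buffer dipeptide of muscle, had 11.4, 3.55 and 6.84 CPM in SUC2 and 40.6, 29.6 and 45.9 CPM in control (log2 fold change -2.41 ± 0.42, adjusted p = 0.0265).

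Fatty acid genes split, with 2 of 37 called higher and 1 called lower (8.11%, against 1.43% over all genes). Their median of -0.16 changed sign with the setting (-0.19 to 0.052). ACSL1, the main long-chain acyl-CoA synthetase of muscle, had 1058, 913 and 1553 CPM in SUC2 and 387, 309.6 and 609 CPM in control (log2 fold change 1.43 ± 0.32, adjusted p = 0.0463). MLYCD, which removes the malonyl-CoA that blocks fatty acid entry into mitochondria, had 67.7, 64.2 and 69.1 CPM in SUC2 and 48.6, 37.4 and 42.3 CPM in control (log2 fold change 0.65 ± 0.15, adjusted p = 0.0462), the smallest fold among the genes called higher. SLC27A1, a fatty acid transport protein, had 18.7, 18.4 and 19.1 CPM in SUC2 and 34.2, 37.0 and 35.1 CPM in control (log2 fold change -0.92 ± 0.20, adjusted p = 0.0423), with the 3 SUC2 libraries within 1 CPM of each other. Of 41 mitochondrial carriers, 2 were called higher. SLC25A33, a pyrimidine nucleotide carrier, had 89.4, 58.8 and 60.3 CPM in SUC2 and 11.3, 11.1 and 11.1 CPM in control (log2 fold change 2.64 ± 0.51, adjusted p = 0.0325). SLC25A5, an adenine nucleotide carrier with near-identical relatives, had a log2 fold change of 1.75 ± 0.31 (adjusted p = 0.0265).

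ACVR2B, the receptor of myostatin and activin, had 7.06, 10.7 and 8.63 CPM in SUC2 and 30.3, 43.2 and 26.4 CPM in control (log2 fold change -1.92 ± 0.34, adjusted p = 0.0265). TGFBR2, the type II receptor of TGF-beta, had 47.3, 64.1 and 58.7 CPM in SUC2 and 32.0, 27.7 and 36.9 CPM in control (log2 fold change 0.82 ± 0.17, adjusted p = 0.0390). The activin receptor thus fell and the TGF-beta receptor rose, as the only calls among 35 genes of that list. Of 37 Wnt signalling genes, 0 were called higher and 2 lower. The log2 fold change was positive for 18 and negative for 19, and the median of -0.018 changed sign with the setting (-0.33 to 0.078). WNT4, a Wnt ligand, had 1.83, 1.71 and 1.05 CPM in SUC2 and 4.97, 9.58 and 5.22 CPM in control (log2 fold change -2.10 ± 0.41, adjusted p = 0.0332). The Wnt antagonist DKK2 ranged from 1.67 to 5.80 CPM in SUC2 and from 9.92 to 51.0 CPM in control (log2 fold change -3.004 ± 0.60, adjusted p = 0.0332). LRIG1, which lowers growth factor receptors, had 29.5, 21.1 and 18.7 CPM in SUC2 and 65.3, 66.5 and 67.8 CPM in control (log2 fold change -1.52 ± 0.27, adjusted p = 0.0265). METRNL, a protein that contracting muscle secretes in mice, had 68.9, 69.4 and 130.3 CPM in SUC2 and 20.3, 13.6 and 15.0 CPM in control (log2 fold change 2.46 ± 0.50, adjusted p = 0.0364) and was chosen after its values were seen. DNMT3A, a DNA methyltransferase, had 37.0, 36.8 and 36.1 CPM in SUC2 and 69.7, 73.1 and 75.7 CPM in control (log2 fold change -0.99 ± 0.18, adjusted p = 0.0265). TUT4, a terminal uridylyltransferase, had 45.3, 36.2 and 35.8 CPM in SUC2 and 90.1, 73.3 and 90.9 CPM in control (log2 fold change -1.12 ± 0.17, adjusted p = 0.0213). SETBP1, RFX5 and MEIS1, nuclear proteins that bind DNA or its regulators, had log2 fold changes of -2.06 ± 0.33 (adjusted p = 0.0213), -1.57 ± 0.25 (adjusted p = 0.0213) and -1.58 ± 0.32 (adjusted p = 0.0332).

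**Figure D3:**
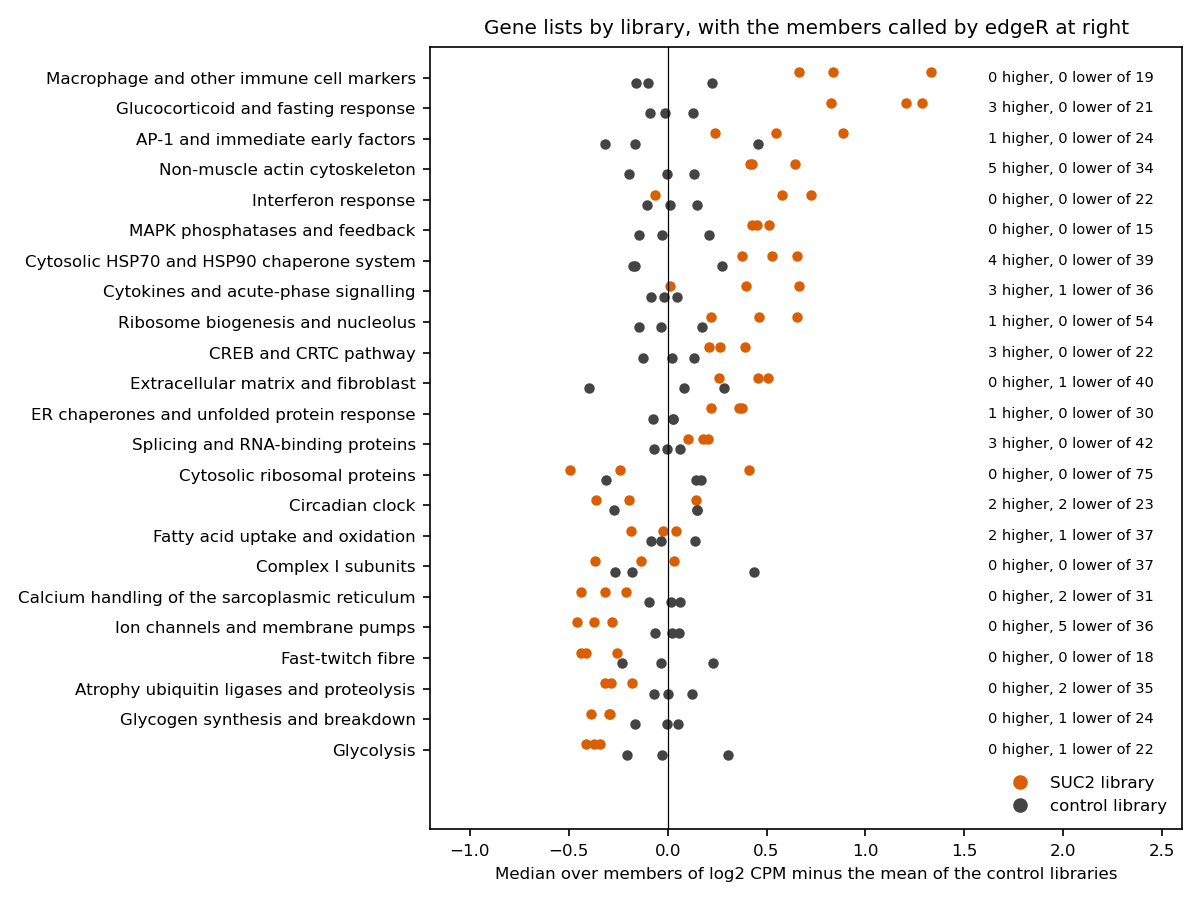
For the gene lists named at left, the median over members of log2 CPM minus the control mean, for each SUC2 library (orange) and each control library (grey); the counts at right are the members called. The glucocorticoid and fasting list had 3 genes called higher and its SUC2 libraries lie right of its control libraries. The ion channel list had 5 called lower and its SUC2 libraries lie left of its control libraries. Over all genes 1.43% were called, and the lists were written with earlier results of these data known.

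The circadian clock held 2 higher and 2 lower calls among 23 genes (17.4%, against 1.43% over all genes, median -0.094). NFIL3, a repressor that opposes the PAR bZIP factors, had 50.8, 72.8 and 52.8 CPM in SUC2 and 22.2, 16.9 and 16.2 CPM in control (log2 fold change 1.67 ± 0.23, adjusted p = 0.0213). DBP, a PAR bZIP activator, had 7.63, 6.27 and 3.64 CPM in SUC2 and 12.2, 18.1 and 19.4 CPM in control (log2 fold change -1.50 ± 0.32, adjusted p = 0.0411). NR1D1 (REV-ERB alpha), the nuclear receptor that represses ARNTL, had 2.25, 7.92 and 1.23 CPM in SUC2 and 19.3, 20.7 and 22.6 CPM in control (log2 fold change -2.46 ± 0.55, adjusted p = 0.0472). NFIL3 rose and DBP and NR1D1 fell, and the other call, ARNTL2, rested on at most 2.07 CPM. ARNTL (BMAL1) had 12.2, 21.6 and 18.6 CPM in SUC2 and 3.79, 6.97 and 8.03 CPM in control (log2 fold change 1.47 ± 0.34, adjusted p = 0.0556). PER3 had 13.6, 9.57 and 7.77 CPM in SUC2 and 17.5, 26.7 and 45.9 CPM in control (log2 fold change -1.54 ± 0.40, adjusted p = 0.0715). Neither passed the threshold. The labels give feeding times but no hour of sampling, and the part of sampling time in these values was not tested.

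MYF6 (MRF4), the myogenic factor that is abundant in mature fibres, was the single call among 30 myogenic regulators and satellite cell genes. Its level was 786, 709 and 678 CPM in SUC2 and 286, 217 and 304 CPM in control (log2 fold change 1.43 ± 0.29, adjusted p = 0.0332). The lowest SUC2 library exceeded the highest control library, 678 against 304 CPM.

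Set against the other succinate diets in the same fit, SUC2 differed in 0 genes from SUC1 (0%) and in 2 genes from SUC3 (0.015%). Against SUC1 the smallest adjusted p was 0.136, 1142 genes had an unadjusted p under 0.05, and DESeq2 called 53. Against SUC3, 1531 genes had an unadjusted p under 0.05 and DESeq2 called 239. The genes called against SUC3 were MYF6 and NFIL3. MYF6 averaged 269 ± 46.0 CPM in control, 179.8 ± 50.1 CPM in SUC1, 724 ± 55.3 CPM in SUC2 and 102 ± 39.9 CPM in SUC3 (SD, n = 3 each), so SUC2 was the highest diet and SUC3 the lowest. SUC2 exceeded SUC3 with a log2 fold change of 2.83 ± 0.30 (SE; adjusted p = 0.00445), and its difference from SUC1 was 2.01 ± 0.29 (adjusted p = 0.136). NFIL3 averaged 18.4 ± 3.28 CPM in control, 26.4 ± 6.56 CPM in SUC1, 58.8 ± 12.1 CPM in SUC2 and 16.4 ± 2.49 CPM in SUC3. Its log2 fold change of SUC2 against SUC3 was 1.84 ± 0.23 (adjusted p = 0.0128). For other genes the diets are given side by side, since each comparison with control shares the same control libraries. SIK1 averaged 15.8 ± 2.14 CPM in control, 73.0 ± 34.7 CPM in SUC1, 89.3 ± 19.9 CPM in SUC2 and 71.7 ± 39.1 CPM in SUC3. ABCC9 averaged 167 ± 25.1 CPM, 102 ± 12.9 CPM, 63.0 ± 9.15 CPM and 98.8 ± 25.5 CPM in the same order of diets.

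**Figure D4:**
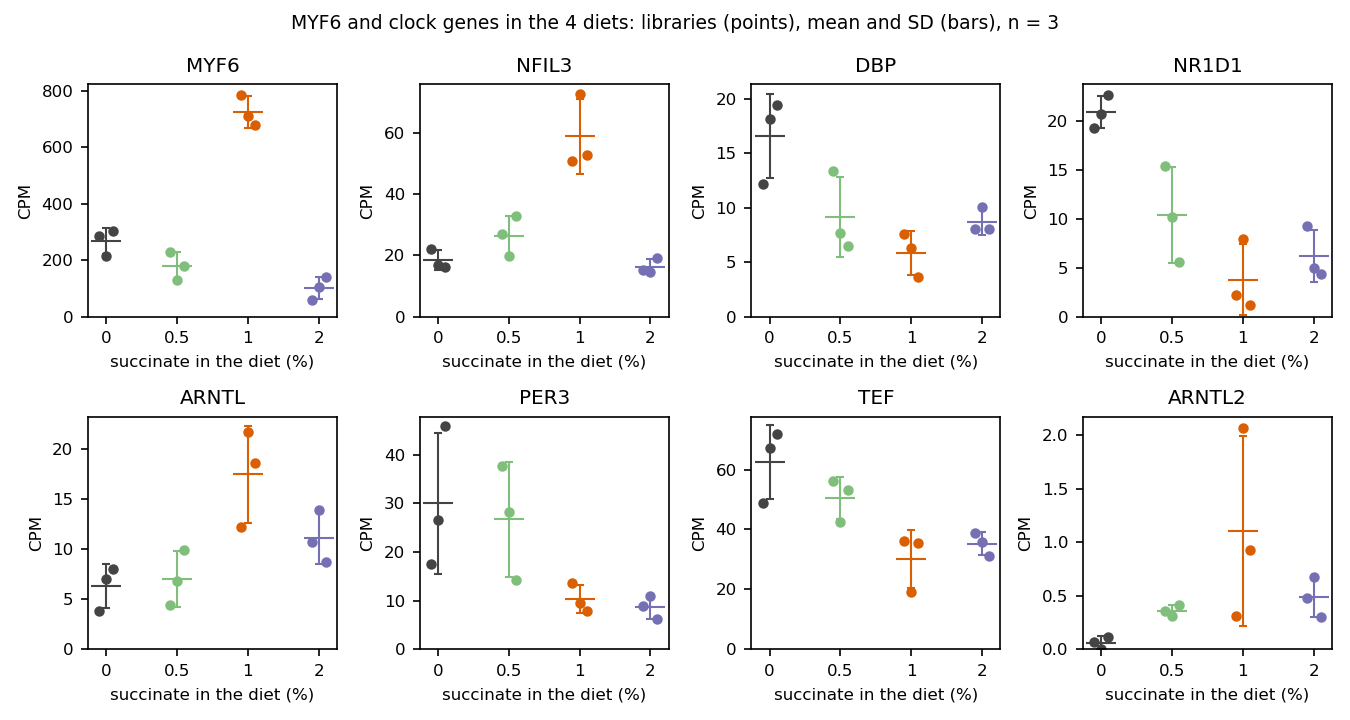
Levels (CPM) of MYF6 and 7 clock genes in control and the diets with 0.5%, 1% and 2% succinate, each point a library, with mean and SD (n = 3). MYF6 and NFIL3 peak at 1% succinate, where MYF6 averaged 724 CPM, while NR1D1 and DBP lie lower in each succinate diet than in control.

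In the deposited table, MYF6 lies on chromosome 3 at 116764528 to 116765939 (plus strand) and NFIL3 on chromosome 2 at 26459332 to 26472435 (minus), on an assembly that the table does not name. Counting by the deposited descriptions and by edgeR calls, genes described with the word receptor had 10 higher and 6 lower of 570 (2.81%). The word also caught genes that are not receptors, such as PTPN2, described as a non-receptor phosphatase. Solute carriers had 1 higher and 5 lower of 67 (8.96%). Over all genes tested the share called was 1.43%. The descriptions with a mitochondrial term held 1 higher and 0 lower of 613 (0.163%).

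**Figure D5:**
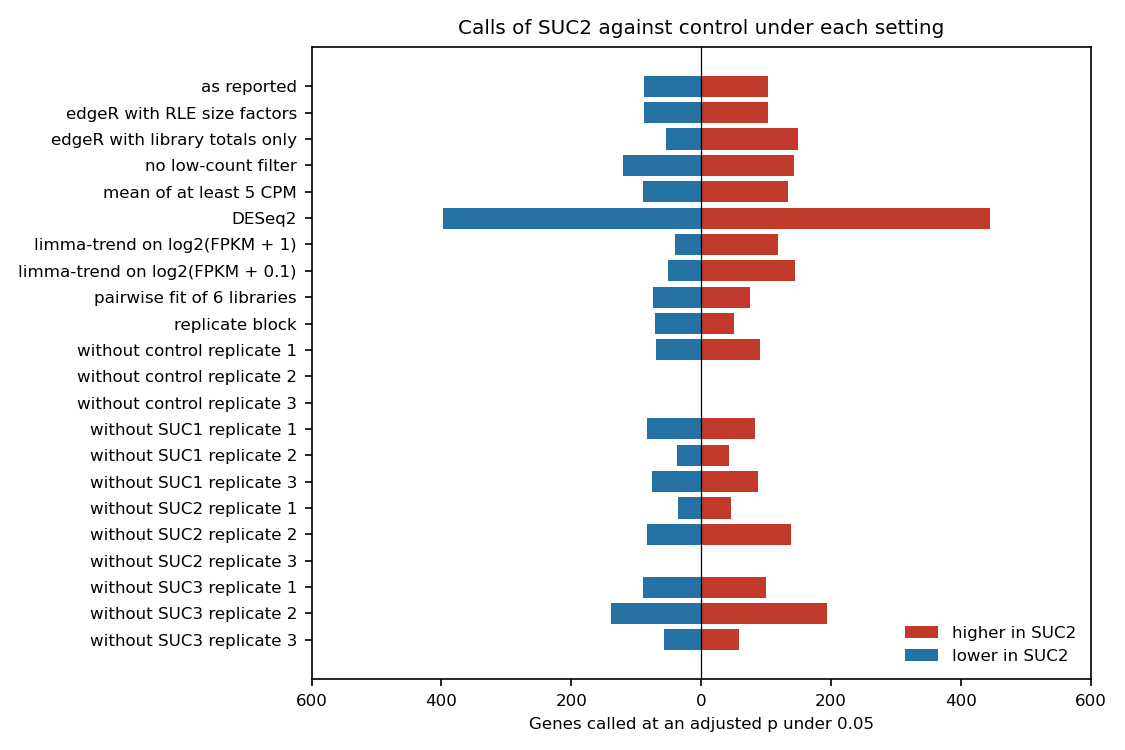
Number of genes called in SUC2 against control under each setting, higher in SUC2 to the right (red) and lower to the left (blue). The count is 191 as reported, 841 with DESeq2, and 0 when SUC2 replicate 3, control replicate 2 or control replicate 3 is left out.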

How the data were processed

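The deposited table held read counts per gene and FPKM values (counts per gene length and library total) for 12 libraries, as whole numbers for the counts. The authors' FPKM values were recomputed from their counts and gene lengths and used in alternative fits only. No aligner or counter is named in the sources used here. The submitters' processing notes name the mouse builds GRCm38 and mm10, while the table's genes are those of sheep. Whether counting used strand is not stated, and antisense neighbours may share reads. Names came from the table, for 48 genes from its descriptions, and from RefSeq ARS-UI_Ramb_v3.0, which matched 20874 of 21257 identifiers. Chromosome labels came from that assembly by identifier. Promoter sequences were not analysed here. All per-sample columns were used (0 left out).

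Counts were filtered with filterByExpr by diet and scaled by TMM. A quasi-likelihood model (edgeR 4.0.16, R 4.3.3) with diet as the only factor was fitted to all 12 libraries, with 8 residual degrees of freedom and a biological coefficient of variation of 0.279. Two-sided p-values were adjusted over 13319 genes by the Benjamini-Hochberg method, with a threshold of 0.05. Each standard error was derived from the log2 fold change and its F statistic. The pipeline was tested on simulated data. Alternatives were other scalings and filters, DESeq2 1.42.0, limma 3.58.1 on log2(FPKM + 1) and log2(FPKM + 0.1), a fit of the 6 libraries, a replicate block, and leaving out each library.

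Members, gene lists and the naming rule were chosen with earlier results of these data known. The rule took genes with a symbol and at least 1 CPM in the higher diet: the 30 higher and 30 lower with the smallest p, up to 6 per list and direction, and the 10 largest folds per direction. Classes of description keywords added a few called genes per class and direction, by smallest p. List members that did not pass are examples. Results for some genes are not reported here.

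Mitochondrially encoded genes took 10.7% ± 1.54 of counts in SUC2 libraries, against 11.2% ± 1.39 in control libraries (SD, n = 3). An exact permutation test, two-sided, gave p = 0.7, where 0.1 is the smallest possible. Counting floors cover counting error only.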

Additional observations from a re-analysis of the deposited data

Results flagged for a closer look

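For 2 genes the effect of 1% succinate differed from that of 2% succinate by the test of the difference itself, edgeR's quasi-likelihood test with Benjamini-Hochberg adjustment. MYF6 was higher in SUC2 than in SUC3 by a log2 fold change of 2.83 ± 0.30 (SE, adjusted p = 0.00445), with 786, 709 and 678 CPM in SUC2 and 61.2, 105 and 141 CPM in SUC3. NFIL3 was higher in SUC2 than in SUC3 by 1.84 ± 0.23 (adjusted p = 0.0128), with 50.8, 72.8 and 52.8 CPM in SUC2 and 15.3, 14.6 and 19.2 CPM in SUC3. The direction held in 3 of 3 SUC2 libraries for both genes. NFIL3 did not pass without SUC2 replicate 2 (adjusted p = 0.0619), without SUC3 replicate 1 (0.165) or with the replicate block (0.0554).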

How the results depend on the processing

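The count of 191 genes called in SUC2 against control was 191 with RLE factors (190 of the 191 among them), 203 with library totals only (154 of the 191), 263 with no low-count filter (185) and 222 at a mean of at least 5 CPM (171). It was 159 with limma on log2(FPKM + 1) (120 of the 191), 196 on log2(FPKM + 0.1) (141) and 149 in the fit of 6 libraries (102). DESeq2 called 841 genes, which held all 191. The share called higher was 53.9%, and it was 73.4% with library totals only, 74.2% with log2(FPKM + 1) and 74.0% with log2(FPKM + 0.1). Leaving out 1 library gave 0 to 332 genes. The count was 0 when SUC2 replicate 3 or either of control replicates 2 and 3 was left out, 332 when SUC3 replicate 2 was, 115 for SUC3 replicate 3, 82 for SUC2 replicate 1 and 80 for SUC1 replicate 2. The cause was not tested. All 191 genes kept their sign and an unadjusted p under 0.05 in each of these fits. They were picked for a small p in these same libraries, and 190 of them did not overlap between the diets. Kept signs, here and for the named genes below, were thus largely fixed in advance and are no separate support. For the 121 genes named by the rule, 1745 alternative values stayed past the threshold, 782 did not, and 0 reversed. Of 61 lists, the median of 22 changed sign in some fit.

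Same-numbered SUC2 and control libraries had correlations of deviations of -0.00731, 0.103 and 0.103, against -0.162 to 0.0826 for differently numbered ones. These few values cannot decide whether the replicate numbers in the labels pair the libraries. With the replicate block 122 genes were called (50 higher, 72 lower), 104 of them among the 191. In SUC2 against SUC1 the count of 0 became 1 with the block, with library totals only, with no filter and with log2(FPKM + 0.1), 2 with log2(FPKM + 1) and 53 with DESeq2, and leaving out 1 library gave 0 to 1. In SUC2 against SUC3 the count of 2 became 1 with the block, 4 with log2(FPKM + 1), 5 in the fit of 6 libraries, 6 with no filter and 239 with DESeq2. Leaving out 1 library gave 1 to 66 there, with 66 when SUC3 replicate 2 was left out, 14 for SUC3 replicate 3, 6 for SUC1 replicate 2, and 1 for SUC2 replicate 2 or SUC3 replicate 1. With 3 libraries per diet, differences within the spread between libraries were not detectable.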
